A study of Homo sapiens with 6 samples.

Results

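The genes described here are 54 mitotic regulators and kinetochore genes, chosen by name from the 58735 rows of the deposited gene count table. They cover CDK1 and its cyclins, the mitotic kinases, the spindle checkpoint, the kinetochore and the control of anaphase. Each name matched 1 row, and all 54 passed the filter on low counts that left 16591 genes for testing. RNA-seq was done on 6 libraries of RPE-1, an established line of human retinal pigment epithelium, which here expressed GFP-tagged CETN2, a centriole marker. In the siSON group (3 libraries) cells received an siRNA against SON, a large protein of nuclear speckles needed to splice many pre-mRNAs, and in the siControl group (3 libraries) they received a scramble siRNA. PLK4, which triggers centriole duplication, was induced from a doxycycline-responsive promoter with 1 µg/mL doxycycline in both groups, so that no library shows these genes without PLK4 induction. The labels give neither the time after transfection nor whether the replicates were separate cultures, so p-values measure the spread between these libraries, which may be technical.

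A dividing cell enters mitosis when CDK1, bound to cyclin A or B and freed of inhibitory phosphates by the CDC25 phosphatases, becomes active. Chromosomes then attach to spindle microtubules through the kinetochore, which is built on centromeric chromatin from an inner layer, the constitutive centromere-associated network (CCAN), and an outer layer, the KNL1, MIS12 and NDC80 complexes. The spindle checkpoint keeps the anaphase-promoting complex (APC/C) off until the attachments are made. Many of these genes are transcribed mainly in late S phase, G2 and mitosis, and their promoters are known for a short element, the cell cycle genes homology region (CHR), next to CCAAT boxes.

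Promoters were examined because most of these genes are known to share one transcription programme, whereas their changes here went both ways. The 250 bases before the gene start were taken from a RefSeq promoter table (build GRCh38.p14), which had an entry for 44 of the 54 genes. The CHR was searched as TTTGAA and the CCAAT box as CCAAT, each on both strands, and the 2 motifs can overlap by some bases. A CHR match was found in 15 of the 44 windows (34.1%), beside 13.3% of all 35116 windows in the table and 8.60% of the 10866 windows of genes tested here. A CCAAT match was found in 29 of 44 (65.9%), beside 32.0% of all windows and 35% of those of genes tested, and 13 windows held both. Of the 15 genes with a CHR match 5 were higher, 7 lower and 3 not called after SON knockdown, and their median log2 fold change was -0.11, beside -0.13 for the other 29. Of the 29 genes with a CCAAT match 10 were higher, 13 lower and 6 not called, with a median of -0.11, beside -0.48 for the other 15. Over all genes tested 35.2% were called higher and 36.5% lower. A match is a description of these letters and does not show that a factor binds there. The start used need not be the one active in these cells, so the absence of a match describes that window alone. The CENPI window (chrX:101100808-101101057), for example, lies inside the gene as annotated (chrX:101098218-101163681).

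The windows shown are those of the 6 genes in which no annotated exon of any gene lies (GENCODE 29), written 5′ to 3′ on the gene's strand and ending at the base before the start, with the motif letters in capitals (ATTGG is CCAAT on the other strand). ESPL1 (chr12:53268049-53268298, plus strand) and CDK1 (chr10:60778081-60778330, plus strand) held 1 CHR and 1 CCAAT match each, and both genes fell. CENPW (chr6:126339865-126340114, plus strand), which fell, and CDC25A (chr3:48188418-48188667, minus strand) and CENPF (chr1:214602945-214603194, plus strand), which rose, held CCAAT matches only. CDC25C (chr5:138338356-138338605, minus strand), which rose, held neither before this start, and windows before other starts were not examined.
ESPL1: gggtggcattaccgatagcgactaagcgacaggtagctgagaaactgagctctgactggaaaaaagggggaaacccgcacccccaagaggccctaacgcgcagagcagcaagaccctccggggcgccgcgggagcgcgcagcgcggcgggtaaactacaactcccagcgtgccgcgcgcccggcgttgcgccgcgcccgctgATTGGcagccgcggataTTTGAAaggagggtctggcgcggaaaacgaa
CDK1: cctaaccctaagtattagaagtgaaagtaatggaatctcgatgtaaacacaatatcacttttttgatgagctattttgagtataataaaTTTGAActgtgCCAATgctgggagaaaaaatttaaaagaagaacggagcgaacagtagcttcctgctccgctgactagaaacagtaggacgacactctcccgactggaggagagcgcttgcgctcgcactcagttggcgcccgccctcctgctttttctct
CENPW: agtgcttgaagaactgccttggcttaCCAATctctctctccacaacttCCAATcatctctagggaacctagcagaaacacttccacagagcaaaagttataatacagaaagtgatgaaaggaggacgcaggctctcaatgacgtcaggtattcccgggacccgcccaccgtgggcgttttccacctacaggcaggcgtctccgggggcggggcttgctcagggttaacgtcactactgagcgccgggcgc
CDC25A: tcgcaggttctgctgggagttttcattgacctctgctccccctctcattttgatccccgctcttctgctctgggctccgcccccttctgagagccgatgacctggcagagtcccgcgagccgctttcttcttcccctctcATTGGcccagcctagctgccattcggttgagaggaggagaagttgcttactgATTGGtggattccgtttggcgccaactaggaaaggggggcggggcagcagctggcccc
CENPF: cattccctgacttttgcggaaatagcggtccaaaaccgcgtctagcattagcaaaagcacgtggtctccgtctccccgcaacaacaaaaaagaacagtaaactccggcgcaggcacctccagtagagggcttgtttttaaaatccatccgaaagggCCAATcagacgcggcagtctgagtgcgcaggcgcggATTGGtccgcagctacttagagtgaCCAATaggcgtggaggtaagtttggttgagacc
CDC25C: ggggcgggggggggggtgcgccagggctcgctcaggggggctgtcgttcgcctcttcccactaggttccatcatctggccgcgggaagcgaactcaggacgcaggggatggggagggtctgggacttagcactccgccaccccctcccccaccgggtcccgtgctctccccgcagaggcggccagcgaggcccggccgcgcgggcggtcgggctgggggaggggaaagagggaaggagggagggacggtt

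Levels are given as CPM, each library's counts relative to its total after TMM scaling (trimmed mean of M values). The libraries held 54572365 to 69764836 counts, and mitochondrial genes took 6.08% to 6.77% of them. SON itself had 283.9 to 312.7 CPM in siControl and 65.0 to 70.0 CPM in siSON, so 22.8% of its control level remained. PLK4 fell by 0.36 on the log2 scale (edgeR adjusted p 0.0143), and by 0.22 without siSON replicate 1 and 0.66 with cyclic loess. CETN2 rose from a mean of 624.2 CPM to 813.7 CPM (log2 fold change 0.38, edgeR adjusted p 5.89e-05), but stood at -0.035 with cyclic loess. The counts of PLK4 and CETN2 may hold reads of the introduced copy and of the cell's own gene, which cannot be told apart here. Of 12 retinal pigment epithelium markers, RPE65, RLBP1 and TYR, which define the mature tissue, did not pass the filter (0 to 0.258 CPM), and PMEL and SERPINF1, which mark the same tissue, were low at 2.07 ± 0.0434 and 0.877 ± 0.0346 CPM (SD, n = 3) in siControl. BEST1 was at 7.71 to 14.8 CPM, MITF, OTX2, PAX6, KRT8 and KRT18 were at 19.7 to 778 CPM, and VIM, which many cultured cells express, was at 6410 to 7823 CPM. BEST1 shares 14.2% of its exonic bases with FTH1 on the other strand, a gene with a mean of 220716.3 counts. PAX6 shares 25.2% with ELP4 and KRT18 16.3% with KRT8, also on the other strand. These marker counts depend on a strand setting that is not stated. The other-cell markers EPCAM, CDH1, RBFOX3, GFAP and ALB were at 0 to 0.229 CPM, and PTPRC and PECAM1 at 0.256 to 1.98 CPM. Of the 9 pigment epithelium markers that were tested 6 were higher and 2, PMEL and SERPINF1, were lower after SON knockdown (log2 fold changes -3.36 and -1.29), and PTPRC and PECAM1 were lower, and their part in the values below was not tested. Over all genes tested 35.2% were higher and 36.5% lower. Annotated pseudogenes and near-identical copies of the 54 genes held few counts, with a mean of 15.7 for CDC20P1 and at most 1.8 for any other.

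Replicate 1 stood apart from replicates 2 and 3 in these genes, more so in siSON. In siSON replicate 1, 51 of the 54 genes had the lowest value of the group, and the median deviation from the group mean was -0.25 on the log2 scale, against 0.10 and 0.15 in siSON replicates 2 and 3. In siControl replicate 1, 43 of 54 had the lowest value, with a median deviation of -0.08. The median deviation of all genes tested lay between -0.001 and 0.005 in the 6 libraries, but replicate 1 also stood apart over all genes. Between libraries scaled by their totals, chi-square per degree of freedom was 18.3 and 24.2 for siControl replicate 1 against replicates 2 and 3. It was 7.16 between siControl replicates 2 and 3. In siSON the values were 21.6, 26.1 and 7.18. The share of all genes with their lowest value in replicate 1 was not computed. Results that turn on siSON replicate 1 are therefore given with and without it. In these bulk libraries, fewer cells in G2 and mitosis and less RNA per cell cannot be told apart.

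**Figure D1:**
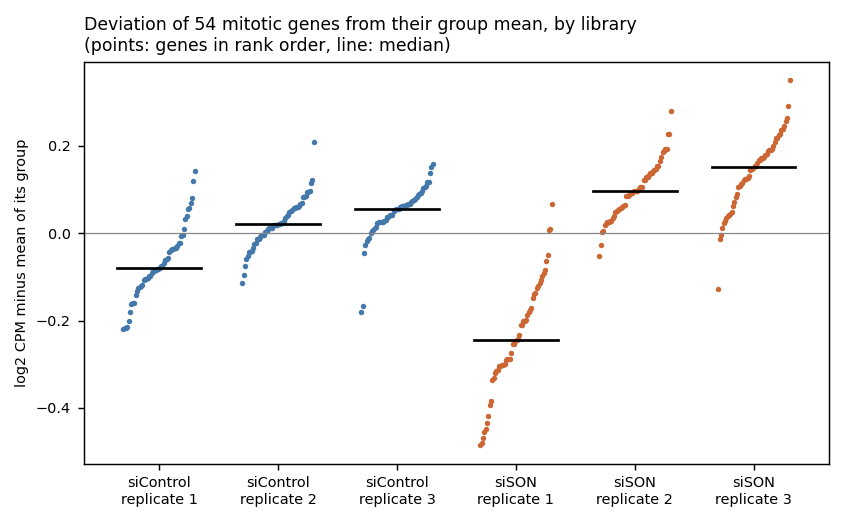
Log2 CPM of each of the 54 genes minus the mean of its group (y axis), by library (x axis), with genes in rank order and a line at the median. In siSON replicate 1 the median lies at -0.25, and in the other 5 libraries it lies between -0.08 and 0.15.

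After SON knockdown the module changed in both directions. The kinetochore genes SPC24, ZWINT and CENPW fell to 16.2%, 24.4% and 25.0% of their control levels, while ZW10, BUB1 and CENPO, which had the largest rises, went up 1.7-, 1.67- and 1.56-fold. Of the 54 genes 42 were called changed by edgeR's quasi-likelihood test (adjusted p under 0.05), or 77.8%, beside 71.7% of all genes tested. Of these 17 were higher (31.5% of the module, beside 35.2% of all genes tested) and 25 lower (46.3%, beside 36.5%). At least a 2-fold fall was called for 8 genes (14.8%, beside 20.5%), namely HMMR and 7 kinetochore genes (ZWINT, SPC24, SPC25, CENPK, CENPM, CENPP and CENPW), and at least a 2-fold rise for 0 of the 54, beside 8.72%. The share called lower was thus larger, and the shares that changed at least 2-fold smaller, than in the whole table, and these differences were not tested.

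The median log2 fold change of the module was -0.10, beside -0.03 over all genes tested. Without siSON replicate 1 it was 0.07, with 20 genes higher and 25 lower, beside 34% and 34.9% of all genes tested in that fit. Without replicate 1 of both groups it was -0.03, with 18 higher and 25 lower, beside 34.6% and 36.9% of all genes. The higher calls also depended on scaling. With library size alone 8 were higher and 26 lower, and the share of all genes called higher was smaller too, at 26.8%, beside 44.3% lower. With cyclic loess normalization 12 were higher and 27 lower, beside 36.4% and 34% of all genes. The CPM values of the groups did not overlap for 40 of the 54 genes (74.1%, beside 75.1% of all genes tested), namely 39 of those called and CENPC. As a share of all counts, before any scaling, the module took 0.392%, 0.423% and 0.424% in siControl replicates 1 to 3 and 0.286%, 0.361% and 0.367% in siSON. All 3 siSON shares were below all 3 siControl shares. The TMM factors differed between the groups, at 1.061, 1.08 and 1.072 in siControl and 0.9256, 0.9446 and 0.9318 in siSON. The separation of the unscaled shares therefore does not show a separation after scaling.

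**Figure D2:**
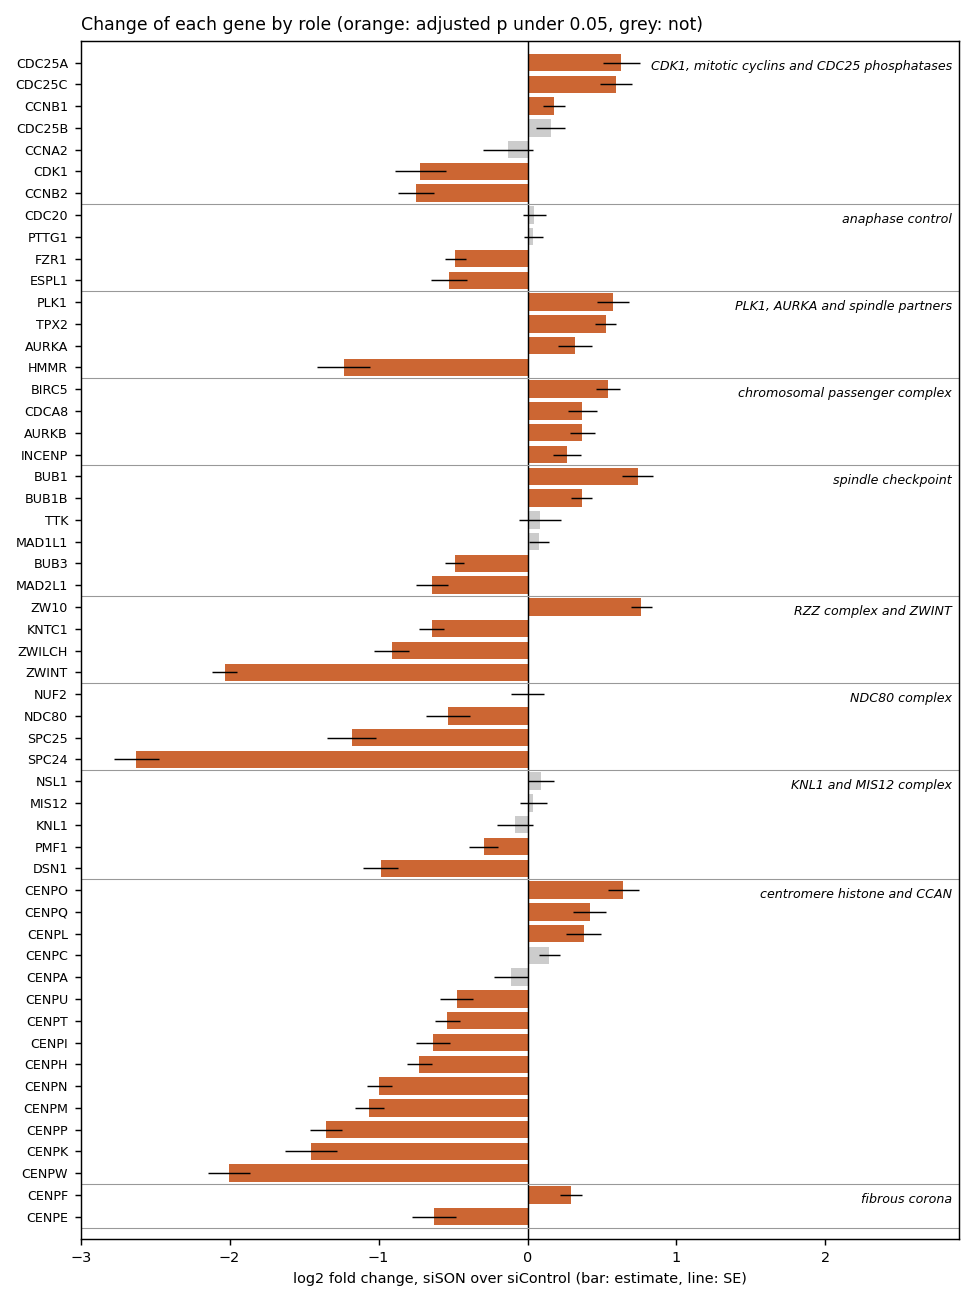
Log2 fold change of each gene (x axis, siSON over siControl) with its standard error, grouped by role; orange bars had an edgeR adjusted p under 0.05 and grey bars did not. SPC24, ZWINT and CENPW, at -2.63, -2.03 and -2.01, extend farthest, and no bar reaches 1 on the right.

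Mitotic entry was examined first. Of 7 genes of CDK1, its cyclins and the CDC25 phosphatases, 3 were higher and 2 lower. The counts of this group and of those that follow stand beside 35.2% higher and 36.5% lower of all genes tested. CDK1, the kinase that drives entry into mitosis, was at 127.9, 155 and 164.9 CPM in siControl (replicates in the order 1 to 3, as throughout) against 64.6, 100.9 and 106.4 CPM in siSON. All siSON values lay below all siControl values, and siSON replicate 1 was lowest. CDK1 fell by 0.72 on the log2 scale (SE 0.17, adjusted p 0.00453), and by 0.51 (adjusted p 0.000888) without siSON replicate 1. This call was lost when no low-count filter was used (adjusted p 0.0901).

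The B-type cyclins, the partners of CDK1, differed from each other. CCNB2 fell from 84.64, 89.54 and 94.26 CPM to 41.54, 58.85 and 59.18 CPM (log2 fold change -0.75, SE 0.12, adjusted p 0.000281). CCNB1 was at 75.41, 78.0 and 82.27 CPM in siControl and 80.04, 90.26 and 96.53 CPM in siSON, so that the groups overlapped. Its log2 fold change of 0.18 was just past the threshold (adjusted p 0.0448) and was -0.02 with library size alone and -0.04 with cyclic loess. DESeq2 put its adjusted p at 0.0547, and it missed the threshold when any library but siSON replicate 1 was left out (adjusted p 0.0531 to 0.195). CCNA2, cyclin A, had a mean of 114.7 CPM in siControl and 104.8 CPM in siSON (log2 fold change -0.13, adjusted p 0.503), with a wide siSON range of 75.04 to 122.4 CPM. Its estimate was 0.08 without siSON replicate 1 and -0.41 (limma adjusted p 0.0353) with cyclic loess.

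The CDC25 phosphatases remove the inhibitory phosphates from CDK1. CDC25A rose from 27.5, 30.67 and 31.51 CPM to 36.75, 49.31 and 52.92 CPM (log2 fold change 0.63, SE 0.12, adjusted p 0.000765). CDC25C rose from 12.61, 16.96 and 14.74 CPM to 20.66, 23.73 and 22.45 CPM (0.59, SE 0.11, adjusted p 0.00047). For both genes all siSON values lay above all siControl values. CDC25B, which had a siControl mean of 106.7 CPM, went to 118.9 CPM (0.16, adjusted p 0.171), and without siSON replicate 1 it was 0.29 (adjusted p 0.00101). CDC25C shares 8.78% of its exonic bases with FAM53C on the other strand, and CCNA2 shares 9.08% with EXOSC9, so their counts depend on a strand setting that is not stated.

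Among the mitotic kinases and the spindle proteins that work with them, 3 of 4 rose and HMMR fell. PLK1, which acts in mitotic entry, spindle assembly and cytokinesis, rose from 72.46, 79.4 and 80.96 CPM to 93.68, 122.3 and 130.6 CPM (log2 fold change 0.57, SE 0.11, adjusted p 0.000771). TPX2, which activates AURKA on the spindle, rose from 198.7, 201.5 and 205.6 CPM to 256.3, 299 and 315.9 CPM (0.52, SE 0.07, adjusted p 4.54e-05). The groups of PLK1 and TPX2 did not overlap. Both rises were smaller but still called with library size alone (PLK1 0.38, TPX2 0.33) and with cyclic loess (0.33 and 0.18, limma adjusted p 0.0149 and 0.0333). AURKA, the kinase of the spindle poles, had a siSON replicate 1 value of 67.1 CPM within the siControl range of 60.39 to 70.67 CPM. Its rise of 0.32 (adjusted p 0.0267) was lost with library size alone (0.12) and with cyclic loess (0.11), and without siControl replicate 1 or 3 or siSON replicate 2 or 3 (adjusted p 0.0562 to 0.104). HMMR, a spindle assembly protein that binds TPX2, fell from 79.11, 95.8 and 102.7 CPM to 27.76, 45 and 45.38 CPM (-1.23, SE 0.18, adjusted p 0.000195). HMMR was thus the exception in its group, at 42.6% of its control level.

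The chromosomal passenger complex corrects faulty attachments and guides cytokinesis, and its 4 subunits were all called higher. AURKB, its kinase, had 56.54, 52.97 and 52.17 CPM in siControl and 60.22, 73.47 and 74.95 CPM in siSON (log2 fold change 0.37, SE 0.08, adjusted p 0.00204). BIRC5, also called survivin, rose from 119.4, 119.7 and 128.7 CPM to 153.5, 188.4 and 193.4 CPM (0.54, SE 0.08, adjusted p 0.000111). CDCA8, or borealin, rose by 0.37 (adjusted p 0.00548) and the scaffold INCENP by 0.27 (adjusted p 0.0244). All 4 estimates stayed above 0 under the other scalings, but with library size alone and with cyclic loess only BIRC5 remained past the threshold, at 0.34 and 0.25 (AURKB 0.17 and 0.19, CDCA8 0.17 and 0.20, INCENP 0.07 and 0.03). The INCENP groups overlapped, and its call was lost without siControl replicate 1 or 2 or siSON replicate 2 or 3 (adjusted p 0.0724 to 0.105). Without siSON replicate 1 the rises were 0.40 to 0.65 and all 4 were called.

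Anaphase begins when CDC20 activates the APC/C, which marks securin (PTTG1) for destruction and so frees separase (ESPL1); FZR1, or CDH1, takes over from CDC20 at mitotic exit. In this group of 4, 2 genes fell and 2 were not called. FZR1 fell from 61.31, 67.48 and 66.01 CPM to 42.63, 47.6 and 49.04 CPM (log2 fold change -0.48, SE 0.07, adjusted p 7.87e-05). ESPL1 fell from 34.88, 38.74 and 38.88 CPM to 20.61, 28.62 and 28.9 CPM (-0.53, SE 0.12, adjusted p 0.002). In both the groups were separate. CDC20 was at 74.67 ± 2.78 CPM (SD, n = 3) in siControl and 77.12 ± 7.84 CPM in siSON (0.05, adjusted p 0.598), and PTTG1 at 98.2 ± 4.97 and 100.9 ± 6.07 CPM (0.04, adjusted p 0.601). Both estimates turned below 0 with library size alone (-0.15 and -0.16) and with cyclic loess (-0.16 and -0.20), where that of PTTG1 had a limma adjusted p of 0.0112. Without siSON replicate 1, CDC20 was called higher at 0.14 (adjusted p 0.0458).

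The spindle checkpoint genes split. BUB1, a kinase that brings checkpoint proteins to the kinetochore, rose from 96.83, 113.5 and 115.1 CPM to 151.9, 187.8 and 203.7 CPM (log2 fold change 0.74, SE 0.11, adjusted p 0.000113), and cyclic loess put its rise at 0.45. BUB1B, which encodes the checkpoint protein BUBR1, rose by 0.36 (adjusted p 0.000757), and that call was lost with library size alone (0.17). In contrast BUB3, the shared partner of both proteins, fell from 305.3, 309.4 and 315.4 CPM to 200.4, 235.8 and 226.7 CPM (-0.49, SE 0.06, adjusted p 2.65e-05; -0.83 with cyclic loess). MAD2L1, which encodes the APC/C inhibitor MAD2, fell from 88.44, 95.02 and 97.89 CPM to 48.69, 63.15 and 68.22 CPM (-0.64, SE 0.11, adjusted p 0.000304). MAD1L1, the kinetochore anchor of MAD2, was at 28.91 ± 1.27 CPM (SD, n = 3) in siControl and 30.48 ± 0.883 CPM in siSON (0.08, adjusted p 0.334), and turned to -0.12 with library size alone. TTK, the kinase MPS1, was at 61.0 ± 7.71 and 64.65 ± 12.1 CPM (0.08, adjusted p 0.613), was -0.11 with library size alone and -0.10 with cyclic loess, and without siSON replicate 1 was called higher at 0.25 (adjusted p 0.0342).

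The RZZ complex (KNTC1, or Rod, ZW10 and ZWILCH) carries dynein and checkpoint proteins to kinetochores, and ZWINT links KNL1 to it. Of these genes 3 fell and ZW10 rose. ZWINT (chr10:56357228-56361275, minus strand, GRCh38) was at 114.3, 109.6 and 116.9 CPM in siControl but 24.24, 30.54 and 28.45 CPM in siSON, which is 24.4% of its control level (log2 fold change -2.03, SE 0.08, adjusted p 5.09e-09). ZWILCH fell from 64.13, 68.4 and 74.83 CPM to 29.5, 39.15 and 41.57 CPM (-0.91, SE 0.12, adjusted p 4.08e-05), and KNTC1 fell by 0.64 (adjusted p 2.76e-05). ZW10 went the other way, from 24.75, 21.91 and 23.65 CPM to 39.97, 38.39 and 41.0 CPM (0.76, SE 0.07, adjusted p 2.18e-06). The groups were separate for all 4 genes, and siSON replicate 1 of ZW10 was not the lowest of its group. ZWILCH shares 3.26% of its exonic bases with RPL4 on the other strand, a gene with a mean of 88805.8 counts.

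The NDC80 complex holds the microtubule. It is a tetramer of an NDC80 and NUF2 pair, which binds the microtubule, and an SPC24 and SPC25 pair, which anchors it in the kinetochore. Of its 4 subunits SPC24, SPC25 and NDC80 fell. SPC24 (chr19:11131520-11155808, minus strand, GRCh38) was at 51.88, 57.66 and 56.43 CPM in siControl and 6.496, 10.68 and 9.777 CPM in siSON, or 16.2% of its control level (log2 fold change -2.63, SE 0.15, adjusted p 1.66e-07). SPC25 fell from 20.49, 22.9 and 21.44 CPM to 6.634, 10.64 and 11.39 CPM (-1.18, SE 0.17, adjusted p 1e-04). In these 2 genes the highest siSON value was far below the lowest siControl value. NDC80 fell by less, from 43.98, 51.07 and 52.99 CPM to 25.66, 37.15 and 39.5 CPM (-0.53, SE 0.15, adjusted p 0.00836), and without siSON replicate 1 by 0.35 (adjusted p 0.00204). NUF2 was at 53.17 ± 2.87 CPM (SD, n = 3) and 53.27 ± 9.07 CPM (0.00, SE 0.11, adjusted p 0.987), an estimate that changed sign with the scaling (-0.19 with library size alone).

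KNL1 and the MIS12 complex (MIS12, DSN1, NSL1 and PMF1) join the NDC80 complex to the inner kinetochore. DSN1 fell from 34.21, 37.91 and 38.45 CPM to 14.94, 19.1 and 21.82 CPM (log2 fold change -0.99, SE 0.12, adjusted p 2.1e-05), with separate groups. PMF1, with 9.774 ± 0.32 CPM (SD, n = 3) in siControl and 7.967 ± 0.596 CPM in siSON, fell by 0.29 (adjusted p 0.0182), a call lost with cyclic loess (-0.06) and without siControl replicate 3 or siSON replicate 3. PMF1 shares 23.3% of its exonic bases with the read-through gene PMF1-BGLAP on the same strand. The other three were not called. MIS12 stood at 0.04 (adjusted p 0.702) and NSL1 at 0.09 (adjusted p 0.383), and both were below 0 with library size alone (-0.16 and -0.11). KNL1, the platform of the checkpoint, stood at -0.09 (adjusted p 0.543), at 0.07 without siSON replicate 1, and at -0.28 (limma adjusted p 0.0476) with cyclic loess.

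The largest group was the inner kinetochore, with the centromere histone CENPA and 13 genes of the CCAN. Of these 14 genes 3 were higher and 9 lower, with a median log2 fold change of -0.59. Library size alone gave a median of -0.78, cyclic loess -0.65 and the omission of siSON replicate 1 -0.49. The 9 falls ran from -0.47 (CENPU) to -2.01 (CENPW). CENPW (chr6:126340174-126348875, plus strand, GRCh38), a small histone-fold protein that pairs with CENPT, was at 34.37, 33.97 and 35.16 CPM in siControl and 6.306, 9.889 and 9.64 CPM in siSON, or 25.0% of its control level (SE 0.14, adjusted p 3.47e-07). Its partner CENPT fell by 0.54 (SE 0.08, adjusted p 0.00013), from 46.79 ± 5.00 CPM to 32.23 ± 1.22 CPM (SD, n = 3 each). Both genes of this pair were thus lower, CENPW by more. CENPT shares 10.8% of its exonic bases with TSNAXIP1 and 6.86% with THAP11 on the other strand, so its counts depend on the strand setting.

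CENPH, CENPI, CENPK and CENPM form one subcomplex of the CCAN, and all 4 genes fell. CENPK fell from 23.5, 26.8 and 26.59 CPM to 6.53, 9.986 and 11.65 CPM (log2 fold change -1.45, SE 0.17, adjusted p 3.28e-05). CENPM fell from 23.6, 24.58 and 24.12 CPM to 10.01, 12.66 and 12.02 CPM (-1.06, SE 0.10, adjusted p 1.59e-06). CENPH fell by 0.73 (adjusted p 1.27e-05) and CENPI by 0.64 (adjusted p 0.000438). The siSON and siControl values did not overlap for any of the 4, and their directions were the same with library size alone and with cyclic loess.

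CENPL and CENPN form a pair that contacts the CENPA nucleosome, and they moved in opposite directions. CENPN fell from 59.73, 61.64 and 62.18 CPM to 26.95, 31.0 and 34.13 CPM (log2 fold change -0.996, SE 0.08, adjusted p 8.96e-07), whereas CENPL rose from 16.71, 20.37 and 20.84 CPM to 21.19, 26.02 and 27.97 CPM (0.38, SE 0.12, adjusted p 0.0128). The rise of CENPL was lost with library size alone (0.18) and without siControl replicate 1 (adjusted p 0.0679). CENPO, CENPP, CENPQ and CENPU belong to a further subcomplex and were likewise split. CENPO rose from 59.19, 61.17 and 61.77 CPM to 77.74, 97.65 and 109.4 CPM (0.64, SE 0.10, adjusted p 0.000216; 0.43 with cyclic loess), and CENPQ rose by 0.42 (adjusted p 0.00552), a call lost with library size alone (0.22). CENPP fell from 20.25, 18.95 and 19.3 CPM to 6.599, 7.446 and 8.872 CPM (-1.35, SE 0.11, adjusted p 6.91e-07), and CENPU fell by 0.47 (adjusted p 0.003). Exons on the other strand overlap 38.0% of the exonic bases of CENPP (IPPK) and 27.0% of those of CENPO (ADCY3). They overlap 12.8% of those of CENPN (CMC2) and 11.7% of those of CENPU (PRIMPOL), so these counts depend on the strand setting.

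CENPA and CENPC, at the base of the kinetochore, were not called. The same held for NUF2, KNL1, MIS12 and NSL1 of the outer layer, whose estimates were nearer to no change. CENPA was at 20.08 ± 1.20 CPM (SD, n = 3) in siControl and 18.62 ± 3.08 CPM in siSON (log2 fold change -0.11, SE 0.12, adjusted p 0.412). Under library size alone CENPA was called lower at -0.31 (adjusted p 0.0418), and without siSON replicate 1 its estimate was 0.04 (adjusted p 0.699). CENPA shares 6.96% of its exonic bases with SLC35F6 on the same strand, a gene with a mean of 2807.5 counts. CENPC, which links CENPA to the outer kinetochore, had 22.31, 20.79 and 21.17 CPM in siControl and 23.9, 23.77 and 23.51 CPM in siSON (0.15, adjusted p 0.0786). The CENPC values were separate between the groups although the gene was not called, and its estimate was -0.05 with library size alone and 0.18 (limma adjusted p 0.0402) with cyclic loess.

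The fibrous corona, the outermost layer of an unattached kinetochore, was represented by 2 large genes. CENPE, a kinesin that moves chromosomes to the spindle equator, fell from 147.3, 175.9 and 172.2 CPM to 80.07, 118.6 and 122.3 CPM (log2 fold change -0.63, SE 0.15, adjusted p 0.00396). CENPF rose from 350.0, 322.3 and 282.4 CPM to 367.9, 399.3 and 403.0 CPM (0.29, SE 0.07, adjusted p 0.00403), a rise that turned to -0.07 with cyclic loess and, at 0.10, was no longer called with library size alone. The direction of CENPF thus depended on the scaling, and that of CENPE was the same under each scaling run.

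**Figure D3:**
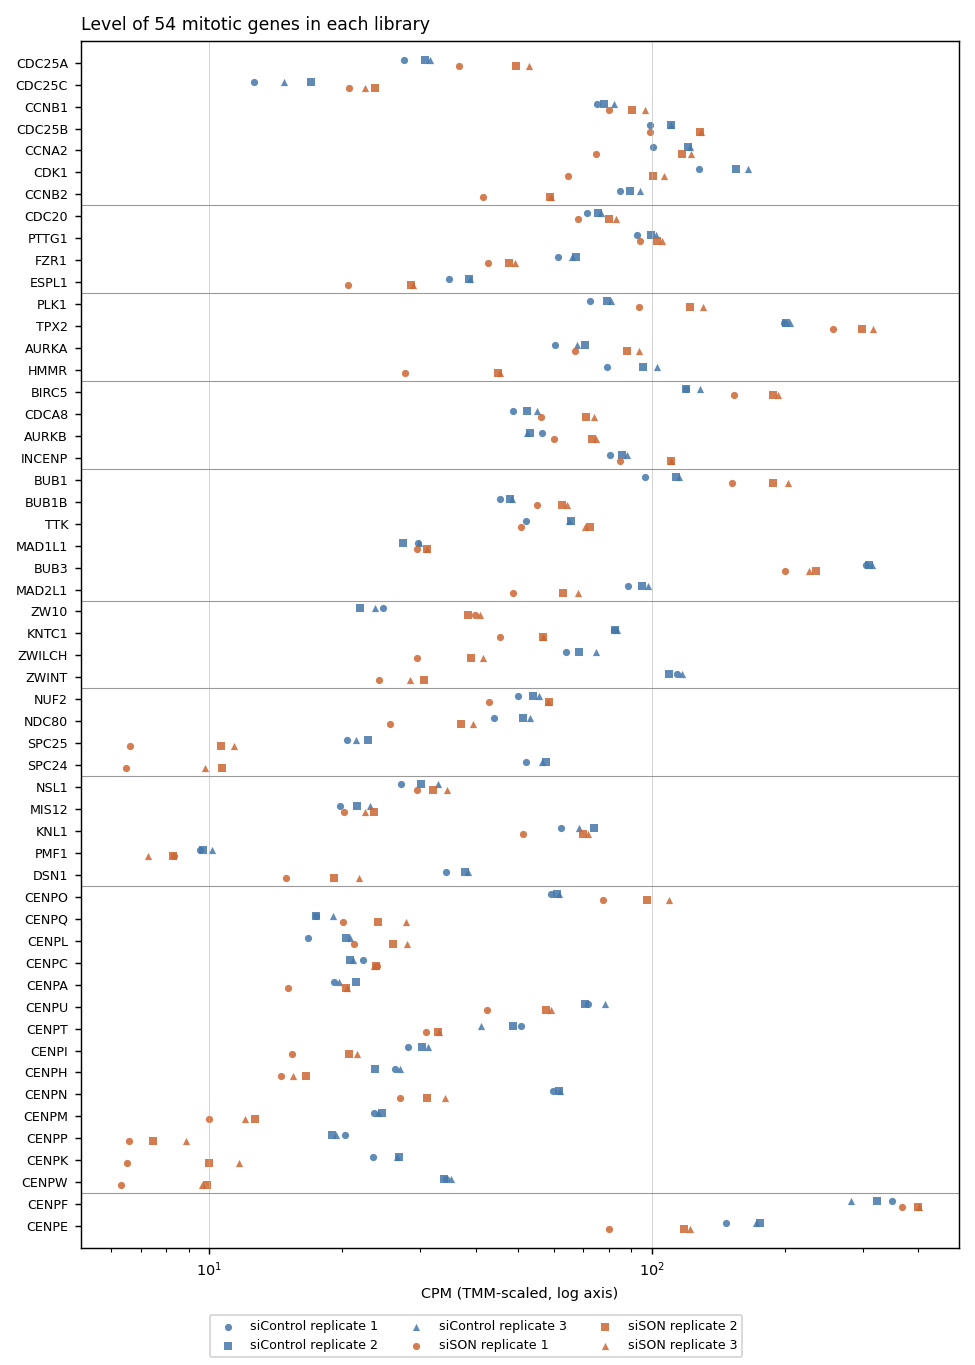
CPM of the 54 genes (log x axis) in each of the 6 libraries, grouped by role as in the plot of fold changes, with blue for siControl, orange for siSON and a marker shape for each replicate. The orange points of SPC24, ZWINT and CENPW lie far left of the blue ones, and the orange circle, siSON replicate 1, is the leftmost orange point for 51 of the 54 genes.

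Per kilobase of exonic length, the order of the module also changed. In siControl TPX2 was highest at 56.0 CPM per kb, followed by PTTG1 (48.8), ZWINT (47.8), CENPW (43.4), CCNA2 (41.0) and CDK1 (38.0). In siSON the TPX2 level was 80.6 CPM per kb and that of PTTG1 50.1, while ZWINT had 11.7 and CENPW 10.8. CENPP was lowest in both groups, at 1.99 and 0.78 CPM per kb. The exonic length is that of all annotated transcripts together, so a gene whose cells use a short transcript is placed too low.

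Ratios of 2 genes within a library do not depend on the factor by which a whole library is scaled. Cyclic loess shifts genes by different amounts, so the ratios are not free of that choice. Such log2 count ratios were compared for 8 pairs of partners or paralogs with a 2-sided exact permutation test, whose smallest possible p with 3 libraries against 3 is 0.1. For 7 of the 8 pairs the groups did not overlap and p was 0.1 (Benjamini-Hochberg adjusted over the 8 pairs, 0.114), so the design could not take them past 0.05. The share of other gene pairs with separate groups was not computed. For single genes it was 75.1% of all genes tested. The genes were chosen with earlier results of these data known, so these separations restate the changes of the single genes. The ratio of NDC80 to SPC24 changed most, from -0.24, -0.18 and -0.09 in siControl to 1.98, 1.80 and 2.01 in siSON, a 4.28-fold shift towards NDC80. The ratio of CCNB1 to CCNB2 went from -0.19 ± 0.02 to 0.76 ± 0.17 (SD, n = 3 each), a 1.92-fold shift towards CCNB1.

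Apart from AURKA and AURKB, the other pairs shifted as well. The ratio of ESPL1 to PTTG1 went from -1.39 ± 0.02 to -1.97 ± 0.19 (SD, n = 3 each), so that separase mRNA per securin mRNA was 0.669 times its control value. CDC20 gained on FZR1, from 0.20 ± 0.03 to 0.73 ± 0.04, a factor of 1.44. Relative to CDC25B, CDC25A shifted 1.38-fold and CDC25C 1.37-fold upwards, and CENPC shifted 1.6-fold relative to CENPT. The ratio of AURKA to AURKB was 0.30 ± 0.18 in siControl and 0.24 ± 0.08 in siSON and was the exception, with overlapping groups (exact permutation p = 0.6).

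**Figure D4:**
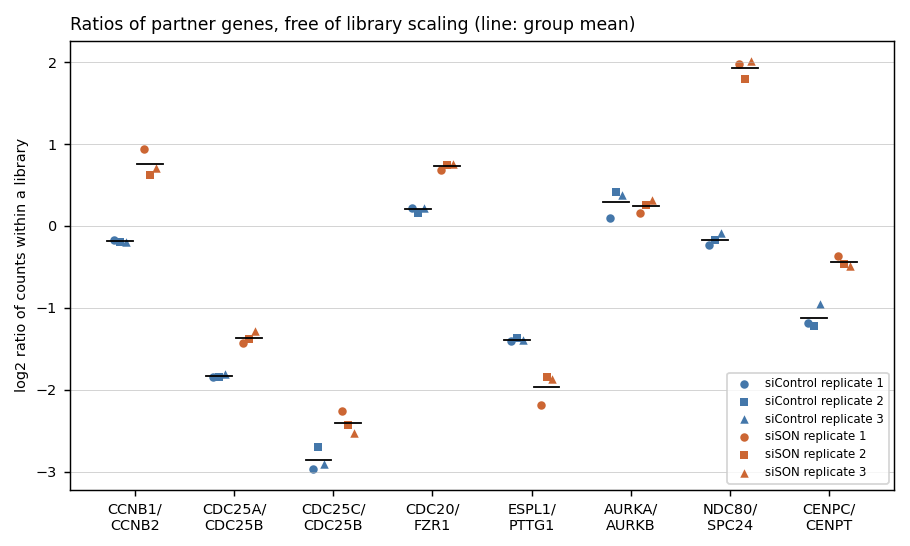
Log2 ratio of counts of 2 genes in the same library (y axis) for 8 pairs (x axis), with a marker for each replicate and a line at the group mean. For 7 pairs the orange siSON points are separate from the blue siControl points, and for AURKA/AURKB they overlap.

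Gene structure was described because SON acts in splicing. In the representative transcript of each gene the module had a median GC content of 43.5%, beside 48.9% for the 12695 protein-coding genes tested that have introns. The genes' median intron lengths had a median of 1373 bases, beside 1864. Across the 54 genes the Spearman correlation with the log2 fold change was 0.24 for GC content, -0.03 for median intron length and 0.06 for the number of introns under 300 bases. Across the protein-coding genes the corresponding values were -0.21, 0.25 and -0.18. Genes are not independent replicates, all values come from the same 6 libraries, and correlations of this size are descriptions only.

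At least 50% of the introns were shorter than 300 bases in 6 of the 54 genes, of which 1 was higher, 2 lower and 3 not called. ZWINT and AURKB each had 6 of 8 introns under this length, yet ZWINT fell by 2.03 and AURKB rose by 0.37. CENPT (9 of 15) fell by 0.54, whereas CDC25B (9 of 15), CDC20 (7 of 9) and MIS12 (1 of 2) were not called. CENPW, by contrast, has 2 introns, neither of them under 300 bases, and SPC24 has 4, of which 1 is. A count per gene holds no information on single introns, and splicing was not analysed here.

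**Figure D5:**
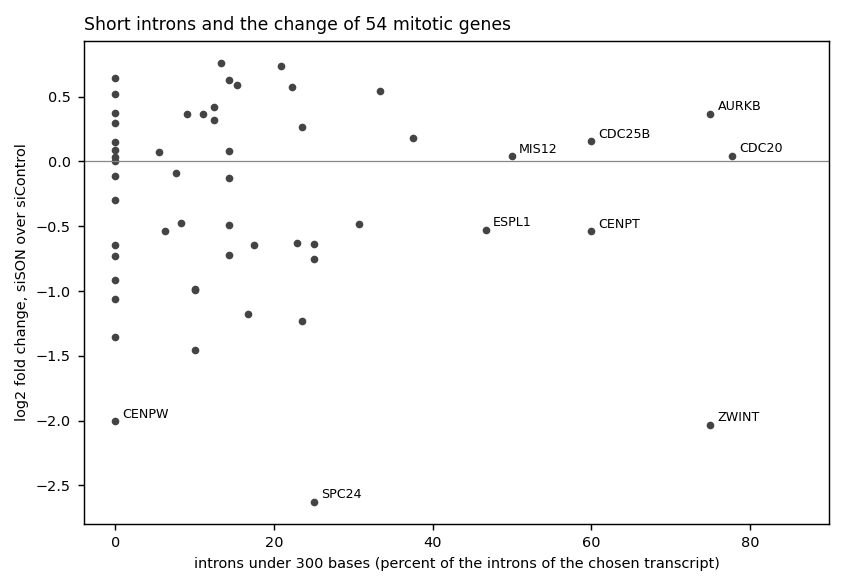
Log2 fold change of the 54 genes (y axis) against the percent of introns under 300 bases in the representative transcript (x axis). ZWINT and AURKB share the same x value, 75.0%, with log2 fold changes of -2.03 and 0.37, and SPC24 and CENPW, the other deep falls, lie at 25.0% and 0%.

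Other genes of the same processes were taken from lists made from general knowledge, with earlier results of these data known. Over all genes tested 71.7% were called, 35.2% higher and 36.5% lower. The share called was 78.6% in the kinetochore and centromere list, 76.5% in the APC/C list and 46.7% in the cohesin list. It was 61.5% in the list of mitotic entry and cytokinesis and 71.4% in the list of transcription. Of 14 further genes of kinetochore and centromere assembly 1 was higher and 10 lower, with a median log2 fold change of -0.49 (-0.69 with library size alone). The smallest p-values in this list belonged to CENPX (log2 fold change -1.24, adjusted p 4.94e-08), ITGB3BP, which encodes the CCAN protein CENP-R (-1.004, adjusted p 7.23e-07), and MAD2L1BP, which encodes an inhibitor of the checkpoint (-1.28, adjusted p 1.68e-06). Of 17 APC/C genes 7 were higher and 6 lower, with a median of 0.00 (-0.20 with library size alone, -0.18 with cyclic loess and -0.08 to 0.03 when 1 library was left out). CDC23, an APC/C subunit, rose from 29.82, 32.09 and 30.82 CPM to 94.85, 91.13 and 87.94 CPM (1.56, adjusted p 4.05e-09), while ANAPC15, which shares 27.1% of its exonic bases with LRTOMT on the other strand, fell by 1.07 (adjusted p 1.4e-06) and ANAPC7 rose by 0.57 (adjusted p 2.15e-06; 0.35 with cyclic loess).

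Of 15 genes of cohesin, which holds sister chromatids together, 5 were higher and 2 lower, and their median of 0.09 turned to -0.11 with library size alone and -0.08 with cyclic loess. Under cyclic loess 11 were called. SMC1A, a core subunit, fell from 156.6, 156.1 and 156.0 CPM to 40.49, 56.95 and 54.47 CPM (log2 fold change -1.63, adjusted p 3.17e-07), and MAU2, part of the cohesin loader, rose by 1.18 (adjusted p 2.06e-08). PDS5A, a regulator of cohesin release, rose by 0.65 (adjusted p 4.43e-07; 0.38 with cyclic loess).

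Of 13 further genes of mitotic entry and cytokinesis 3 were higher and 5 lower, and the 2 inhibitory kinases of CDK1 moved apart. PKMYT1, which encodes MYT1, fell from 37.23, 38.82 and 36.77 CPM to 4.756, 7.329 and 7.259 CPM (log2 fold change -2.55, SE 0.14, adjusted p 4.58e-08). WEE1 rose from 53.43, 40.52 and 39.21 CPM to 116.1, 112.5 and 115.0 CPM (1.37, SE 0.10, adjusted p 6.37e-07). Neither pair of groups overlapped. PKMYT1 shares 24.5% of its exonic bases with PAQR4 on the other strand. CKAP2, a spindle protein, fell by 0.82 (adjusted p 0.000154).

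The transcription of the module was represented by 14 genes of the DREAM, MuvB and E2F complexes and FOXM1, of which 4 were higher and 6 lower (median log2 fold change -0.11). That median was 0.02 without siSON replicate 1, -0.31 with library size alone and -0.30 with cyclic loess. E2F1, an activator of genes of S phase entry, fell from 24.59, 26.68 and 29.85 CPM to 4.101, 6.709 and 6.61 CPM (-2.22, SE 0.17, adjusted p 6.7e-07). MYBL2, which works with the MuvB complex on G2 and mitotic genes, fell from 81.55, 94.7 and 97.9 CPM to 16.33, 27.18 and 28.03 CPM (-1.94, SE 0.18, adjusted p 9.95e-06). TFDP1, a partner of E2F1 and some other E2F proteins, fell by 0.74 (adjusted p 5.11e-06). In E2F1 and MYBL2 the siSON values were all below the siControl values, and siSON replicate 1 was the lowest in each. Their part in the changes of the 54 genes was not tested.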

How the data were processed

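The deposited table holds integer read counts for each gene, 1 column per library, without normalization by the authors. The submitters' processing notes name cutadapt 1.16, STAR 2.5.2a, featureCounts 1.6.2, DESeq2 1.28.1 and the build hg38; strand and multi-mapping settings are not given in the sources used here. Of the 58735 identifiers 100% were in GENCODE 29 (GRCh38), which gave exons, overlaps and GC content; the transcript with the best APPRIS label, then the longest, represented each gene.

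Counts were tested in R 4.3.3 with edgeR 4.0.16 (filterByExpr with a minimum count of 10, TMM, robust quasi-likelihood F test, group alone as predictor), with Benjamini-Hochberg adjustment over all 16591 genes tested and calls at an adjusted p under 0.05. Single-gene adjusted p-values come from this test unless limma is named. Log2 fold changes are siSON over siControl; the SE is the absolute value divided by the square root of F. CPM values were computed from the deposited counts. Ratios used counts plus 0.5.

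The genes and lists were chosen with earlier results of these data known. All 54 genes of the module may be named, as may SON, PLK4 and CETN2 and, from each further list, the 3 called genes with the smallest adjusted p. Alternatives were DESeq2 1.42.0, limma-voom (limma 3.58.1), RLE factors, library size alone, cyclic loess (prior count 2), no filter, a mean count of at least 50, a replicate block and the omission of each library. Totals put 3 counts at 0.043 to 0.055 CPM before TMM scaling, counting error only.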

Additional observations from a re-analysis of the deposited data

How the results depend on the processing

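Omitting replicate 1 of both groups was an alternative chosen after seeing the data. With library size alone, which shifted the log2 fold changes of all genes by a median of -0.20 (cyclic loess shifted them by 0.14), 8 of the 54 genes were higher instead of 17 (over all genes, 4441 instead of 5834 of 16591), and the median of the module was -0.294 instead of -0.098. The cohesin count was 11 under cyclic loess instead of 7. The median of the 14 G2/M transcription genes ran from -0.204 to 0.019 when 1 library was left out and was above 0 only without siSON replicate 1. The cause of these moves was not tested. Leaving out 1 library at a time, the module's median ran from -0.17 to 0.072, and it was above 0 only without siSON replicate 1. The number of genes called ran from 34 to 45 over all 15 alternatives. Of the 54 genes, 31 kept their direction and their side of the threshold in all of them.

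Signs changed as follows (log2 fold changes). With library size alone they were CCNB1 -0.018, CDC25B -0.041, CDC20 -0.150, PTTG1 -0.159, MAD1L1 -0.121, TTK -0.113, NUF2 -0.194, MIS12 -0.157, NSL1 -0.108 and CENPC -0.050. With cyclic loess they were CCNB1 -0.041, CDC25B -0.107, CDC20 -0.160, PTTG1 -0.201, TTK -0.100, NUF2 -0.158, CENPF -0.068 and CETN2 -0.035. With a mean count of at least 50 they were CDC20 -0.011, PTTG1 -0.019, NUF2 -0.055 and MIS12 -0.017, and under limma-voom NUF2 was -0.016. Over the fits that each left out 1 library the ranges were -0.245 to 0.075 for CCNA2, -0.009 to 0.141 for CDC20, -0.027 to 0.1 for PTTG1, -0.044 to 0.245 for TTK, -0.066 to 0.152 for NUF2, -0.172 to 0.069 for KNL1, -0.044 to 0.114 for MIS12, -0.006 to 0.158 for NSL1 and -0.171 to 0.037 for CENPA. The AURKA to AURKB log2 ratio changed by -0.154 to 0.006 in these.

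The main test did not pair the libraries by replicate number, and what the numbers stand for is not stated. Same-numbered libraries of the 2 groups had correlations of their deviations of 0.0461 to 0.194. Those of differently numbered ones were all lower, at -0.138 to 0.0286. Replicate 1 was the lowest of its group for 43 of the 54 genes in siControl and 51 in siSON. Replicate 3 was the highest for 37 and 40. The corresponding shares of all genes were not computed. Whether the libraries were prepared in pairs was not tested. With the replicate block 43 of the 54 genes were called, 18 higher and 25 lower (CDC25B was gained at 0.148, adjusted p 0.0252), the median was -0.108, and NUF2 was -0.010. Of all genes tested 36.5% were called higher and 37.7% lower with this block, beside 35.2% and 36.5% without it.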
